A study of Mus musculus with 6 samples.

Results

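Kinesins are motor proteins that walk along microtubules. Some build the mitotic spindle, move chromosomes and finish cytokinesis, and are made mainly in cells that divide. Others carry vesicles, organelles and ciliary components, and a neuron depends on them to supply its axon. In these data the group comprised every gene whose symbol is Kif followed by a number and an optional letter, which were 37 of the 19938 genes with a transcript cluster of their own on the array. A transcript cluster is the set of probes that the array summarises to 1 value, and where a gene had several, the cluster with the highest mean over all arrays was used. By the role they are best known for, 12 of the 37 were placed among mitotic kinesins, 15 among transport kinesins and 10 among other kinesins of cilia, signalling and microtubule depolymerisation.

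The samples were enterospheres, balls of cells that float in culture and arise from digested gut muscle of newborn C57BL/6 mice, up to 12 hours of age. In the proliferation group (3 arrays) they stayed in medium with EGF and FGF for 11 days. In the differentiation group (3 arrays) they were moved after 9 days to medium without EGF, FGF and B27. This medium held ascorbic acid-2-phosphate and was used for 2 days. By the paper's methods, B27 was given only at the start, before the cells were seeded. No other treatment or allele was named for either group, and each sample pooled animals, 3 mice by the labels and 2 pups by the paper's methods. The question was which genes change when progenitors of the enteric nervous system leave proliferation, and the comparison cannot separate the loss of growth factors from the added ascorbate. Values are log2 array values after RMA normalization, differences are differentiation minus proliferation on that scale, and the words rose and fell are kept for an adjusted p under 0.05 in limma.

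Across arrays, log2 values correlated at 0.983 or higher. Markers of the labelled tissue were present: Sox10, the transcription factor of enteric glia and progenitors, had values from 11.30 to 11.71 and the receptor Ret from 11.14 to 11.51, and 10 of 11 neuron markers had means above 6.15, the median over all clusters. Of markers of other cell types, 0 of 4 for macrophages, 1 of 4 for epithelium (Krt8) and 2 of 3 for endothelium (Cdh5 and Kdr) lay above that value. Of smooth muscle markers 4 of 6 lay above it, such as Acta2 with 9.19 to 10.22, while Myh11 and Cnn1 lay below. Of fibroblast markers 5 of 5 lay above it, such as Dcn with 11.76 to 12.41. In such bulk samples fewer cells of a type and less RNA per cell cannot be told apart. No detection call was used, and 9 of the 37 kinesins had a mean below 6.15, where array signal and background are hard to separate.

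Promoters of genes expressed in G2 phase and mitosis often carry a short element, TTTGAA, known as the cell cycle genes homology region, and CCAAT boxes bound by the factor NF-Y. RefSeq promoter windows (GRCm38.p6), from 250 bases before to 50 after the transcription start, were at hand for 31 of the 37 kinesins. The others were Kif20a, Kif5a, Kif5b, Kif13b, Kif21b and Kif19a. Both strands were searched, so TTCAAA and ATTGG were counted as the same motifs read from the other strand, and no match to one motif overlapped a match to the other in a kinesin. The following windows from 70 bases before to 30 after the start are shown because they set mitotic kinesins that fell beside kinesins that did not pass the test, with every match to either motif in capitals.
Kif18b (chr11:102925095-102925194, minus strand): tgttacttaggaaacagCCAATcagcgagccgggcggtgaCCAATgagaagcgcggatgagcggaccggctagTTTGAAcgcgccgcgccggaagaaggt
Kif11 (chr19:37376312-37376411, plus strand): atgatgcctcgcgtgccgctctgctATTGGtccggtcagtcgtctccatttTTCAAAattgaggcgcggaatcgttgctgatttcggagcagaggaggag
Kif23 (chr9:61946770-61946869, minus strand): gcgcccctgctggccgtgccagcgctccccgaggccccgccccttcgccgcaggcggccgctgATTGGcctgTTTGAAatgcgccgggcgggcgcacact
Kif22 (chr7:127042391-127042490, minus strand): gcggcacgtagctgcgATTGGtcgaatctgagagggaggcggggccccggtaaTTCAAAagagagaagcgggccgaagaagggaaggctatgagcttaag
Kif20b (chr19:34922288-34922387, plus strand): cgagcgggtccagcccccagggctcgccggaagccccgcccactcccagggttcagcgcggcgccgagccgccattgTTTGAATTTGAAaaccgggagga
Kif18a (chr2:109280668-109280767, plus strand): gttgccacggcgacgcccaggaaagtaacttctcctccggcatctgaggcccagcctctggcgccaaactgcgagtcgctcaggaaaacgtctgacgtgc
Kif16b (chr2:142901435-142901534, minus strand): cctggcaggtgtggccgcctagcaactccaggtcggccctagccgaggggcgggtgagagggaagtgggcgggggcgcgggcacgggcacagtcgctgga
Over the whole windows, TTTGAA was found in 9 of the 11 mitotic kinesins with a promoter, in 1 of 11 transport kinesins and in 2 of 9 other kinesins, against 17.9% of all 32851 promoters and 20.2% of all genes. All 9 mitotic kinesins that fell and had a window were among the matches, and the 2 without a match were Kif18a and Kif2b, neither of which passed the test. CCAAT was in 7 of the 11 mitotic, 3 of 11 transport and 4 of 9 other kinesins, against 37.4% of promoters and 41.1% of genes. Both motifs were in 6 of the 11 mitotic, 0 of 11 transport and 2 of 9 other kinesins, against 6.95% of promoters and 7.97% of genes. The matching transport kinesin was Kif1a, and the matching other kinesins were Kif27 and Kif26b, which held both motifs and did not pass the test, while Kif24, the fallen gene outside the mitotic list, held no TTTGAA but CCAAT. In Kif11 the TTTGAA element began 19 bases and the CCAAT box 45 bases before the start, in Kif22 the nearest copies began 17 and 54 bases before it, and in Kif20b adjoining copies of TTTGAA began at bases 8 and 14 after it. The stretches printed do not stand for all genes. Kif14 and Kif2c, which fell, had no match in that span, as their TTTGAA began 228 and 103 bases before the start. Of genes that did not pass, Kif26b and a window of Kif1a held TTTGAA there, and Kif2b, Kif3a and Kif3b held CCAAT. These matches describe letters in a window and carry no test of binding.

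Of the 12 mitotic kinesins 10 fell in differentiating enterospheres and 0 rose, while 2.97% of all 19938 genes fell (592) and 2.94% rose (587). Their log2 fold changes had a median of -1.88, against 0.02 over all genes, and the 10 that fell ran from -1.23 to -2.34. Of these, Kif4, Kif15, Kif2c, Kif22, Kif14 and Kif20b had differentiation means of 5.29, 5.46, 6.04, 5.99, 5.42 and 4.61. Such values lie below 6.15, where signal and background are hard to separate, so the sizes of their decreases are less certain. In 11 of the 12 every differentiation array lay below every proliferation array, an order found in 12.9% of all genes. The count of 10 became 6 without proliferation replicate 3 and 6 without differentiation replicate 1, where Kif15, Kif2c, Kif22 and Kif20b no longer passed, and 0 by the methods' t-test at 1.5-fold after Benjamini-Hochberg adjustment. Uncorrected, the same t-test found 11 lower.

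Motors that build the spindle were among the largest decreases. Kif11 (transcript cluster 10462796), also called Eg5, slides antiparallel microtubules apart so that the spindle poles separate. Its log2 values were 9.01, 9.88 and 9.25 in proliferation replicates 1, 2 and 3 and 6.90, 7.39 and 7.13 in differentiation replicates 1, 2 and 3. The lowest proliferation array was 1.62 above the highest differentiation array. Kif11 thus went from 9.38 ± 0.45 to 7.14 ± 0.24 (SD, 3 arrays each), a log2 fold change of -2.24 ± 0.24 (SE, adjusted p = 0.00588) or a 4.72-fold decrease. Kif15, which can share the work of Kif11 in keeping a spindle bipolar, had 6.81, 8.08 and 7.44 in proliferation and 5.23, 5.82 and 5.34 in differentiation. It showed the widest spread of the 12 in both groups, with SDs of 0.63 and 0.31, and a log2 fold change of -1.98 ± 0.32 (SE, adjusted p = 0.0208). Without proliferation replicate 3 or differentiation replicate 1 or 3, Kif15 did not pass (adjusted p = 0.0878, 0.105 and 0.0693).

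Of the kinesin-8 motors, which act at microtubule plus ends, 1 of 2 fell. Kif18b (transcript cluster 10391811), a plus-end motor that shapes the astral microtubules, fell most of all 37. It measured 9.32, 10.08 and 9.57 in proliferation and 7.26, 7.48 and 7.21 in differentiation, so all arrays of a group lay within a narrower span than the distance of 1.84 between the groups. The log2 fold change was -2.34 ± 0.20 (SE, adjusted p = 0.00327), a 5.06-fold decrease. Its relative Kif18a, which dampens chromosome movement at the metaphase plate, had 6.62, 7.56 and 6.80 and 5.91, 6.19 and 6.12. The groups did not overlap there either, but proliferation replicate 2 stood 0.76 above the next array, and the log2 fold change of Kif18a, -0.92 ± 0.24 (SE, adjusted p = 0.102), missed the threshold, with a 95% interval of -1.49 to -0.35. In the test over clusters with 1 symbol it passed (adjusted p = 0.0394). Kif18a was given in full after its values had been seen.

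The kinesin-13 motors do not walk but take microtubules apart at their ends. Kif2c, or MCAK, which corrects wrong attachments at centromeres, measured 7.35, 8.36 and 8.00 in proliferation and 5.80, 6.25 and 6.05 in differentiation. Every differentiation array was lower by at least 1.10, and the log2 fold change was -1.87 ± 0.26 (SE, adjusted p = 0.0124). It did not pass without proliferation replicate 3 or differentiation replicate 1 (adjusted p = 0.0656 and 0.071). Kif2b, a relative with a role in spindle assembly, had means of 4.62 and 4.57, below the median cluster mean, and a log2 fold change of -0.06 ± 0.10 (SE, adjusted p = 0.847). Kif2a, which acts both at spindle poles and in the pruning of axon branches and was counted with the other kinesins, was at 9.83 to 10.03 on all 6 arrays, with a 95% interval of the change from -0.27 to 0.14.

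Because passing in one gene and not in its relative does not show that the changes differ, the difference between relatives was taken within each array for 4 pairs chosen after the values were known. Kif18b minus Kif18a was 2.70, 2.52 and 2.77 in proliferation and 1.36, 1.29 and 1.09 in differentiation, a shift of -1.42. Kif2c minus Kif2a shifted by -1.80. Kif2c minus Kif2b shifted by -1.81, which adds little to the change of Kif2c itself, as Kif2b lay far below the median cluster mean on all arrays. For Kif13b minus Kif13a, a pair of transport kinesins, the shift was 0.19. In all 4 pairs the groups did not overlap. The pairs were picked with the values known, and the groups were already apart in Kif18b, Kif2c and Kif13b alone. The two-sided exact permutation p was 0.1 (0.1 after Benjamini-Hochberg adjustment over the 4). This is the smallest that 3 arrays against 3 allow, so the design could not pass this test and the p decides nothing.

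Chromokinesins push chromosome arms from the poles. Kif4 also fixes the length of the central spindle together with Prc1, and it measured 7.04, 7.98 and 7.37 in proliferation and 5.31, 5.40 and 5.15 in differentiation. All differentiation arrays were at least 1.64 lower, and the log2 fold change was -2.18 ± 0.23 (SE, adjusted p = 0.00586), a 4.52-fold decrease. Kif22, also known as Kid, had 7.05, 8.10 and 7.66 and 5.83, 6.05 and 6.09. Here proliferation replicate 1 came nearest to the differentiation arrays, by 0.97, and the log2 fold change was -1.62 ± 0.25 (SE, adjusted p = 0.0184). This call was lost with the omission of proliferation replicate 3 or any 1 differentiation array (adjusted p from 0.0541 to 0.0968).

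The motors of cytokinesis fell as well. Kif23, or MKLP1, forms the centralspindlin complex with Racgap1 at the midzone, and measured 8.65, 9.30 and 8.91 in proliferation and 6.92, 7.18 and 7.09 in differentiation. No arrays of the groups came closer than 1.47, with a log2 fold change of -1.89 ± 0.17 (SE, adjusted p = 0.00406). Kif20a, or MKLP2, which brings the Aurora B complex from chromosomes to the midzone, had 8.94, 9.73 and 9.18 and 7.02, 7.35 and 7.28. Its decrease was 4.19-fold, with a log2 fold change of -2.07 ± 0.21 (SE, adjusted p = 0.0054). For Kif14, which works at the midbody with citron kinase, the values were 6.73, 7.24 and 6.81 and 5.51, 5.53 and 5.24, a log2 fold change of -1.50 ± 0.16 (SE, adjusted p = 0.00579). A second and dimmer cluster of Kif14, with a mean of 4.03, had a log2 fold change of -0.02 (adjusted p = 0.976). Kif20b, another motor of late cytokinesis, had 5.55, 6.20 and 5.75 and 4.49, 4.69 and 4.64. Both its means were below 6.15, the groups still did not overlap, and its log2 fold change of -1.23 ± 0.17 (SE, adjusted p = 0.0126) ended as a call without proliferation replicate 3 or differentiation replicate 1 (adjusted p = 0.0589 and 0.0736).

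**Figure D1:**
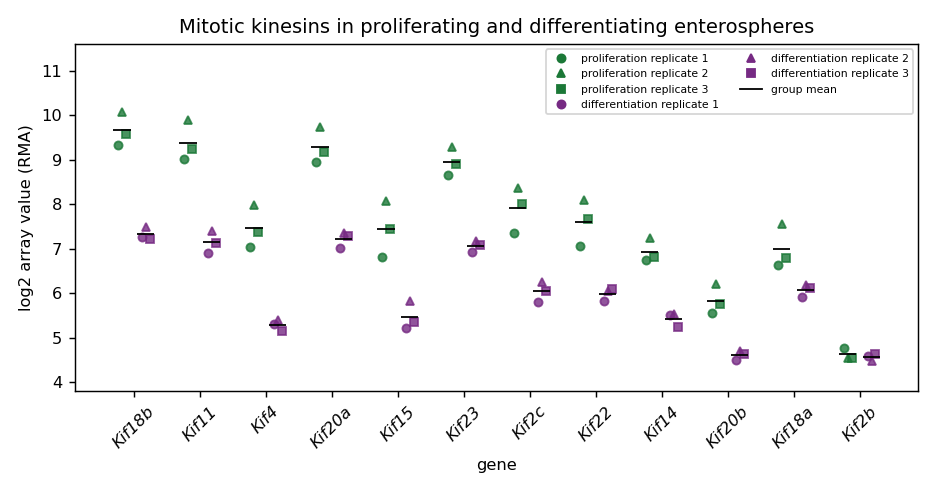
Each point is the log2 array value (RMA, vertical axis) of 1 mitotic kinesin (horizontal axis, ordered by change) on 1 array, green for proliferation and purple for differentiation, with the replicate number given by the symbol and black bars for the means of 3 arrays. In 11 of the 12 genes the purple points lie below all green points, the triangle of proliferation replicate 2 is the highest point of those 11, and Kif2b overlaps near 4.6.

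The plot of mitotic kinesins by array shows that arrays within a group differed in an ordered way. The mean log2 level of the 12 was 7.32, 8.09 and 7.61 in proliferation replicates 1, 2 and 3. In differentiation replicates 1, 2 and 3 it was 5.90, 6.15 and 6.00, the same order over a narrower range. Proliferation replicate 2 was the highest of the 3 in 11 of the 12 mitotic kinesins, against 29.7% of all genes, and the exception was Kif2b. Proliferation replicate 1 was the lowest in the same 11. The median SD of the 12 was 0.43 in proliferation and 0.14 in differentiation, against 0.11 in both groups over all genes. The proliferation markers Mki67, Top2a, Ccna2, Cdk1, Mcm2 and Pcna were likewise all highest in proliferation replicate 2, and 5 of the 6 fell, with Pcna not passing. Their mean log2 level ranged over 9.99 to 10.64 in proliferation and 8.52 to 8.72 in differentiation. It was lowest in replicate 1 and highest in replicate 2 in both groups. Mki67, the antigen used to count dividing cells, had a log2 fold change of -2.35. Markers of cell types also differed between the groups and among the proliferation arrays. Of 6 smooth muscle markers 4 rose, with log2 fold changes of 1.44 for Tagln and 1.22 for Actg2, and their mean level was 6.75 to 6.78 in proliferation and 7.49 to 7.64 in differentiation. Of 8 measured markers of enteric glia and progenitors, Nes (1.27) and Gfap (1.16) rose, Fabp7 (-1.07) and S100b (-0.74) fell and 4 did not pass, with mean levels of 10.38 to 10.81 and 10.64 to 10.75. Of 3 markers of interstitial cells of Cajal, the pacemaker cells of the gut, Ano1 fell (-1.43) and 2 did not pass, with mean levels of 10.70 to 11.09 and 10.06 to 10.23. Proliferation replicate 2 was the highest of its group in 7 of the 8 glial markers and the lowest in all 3 Cajal markers. The part of dividing cells and of these cell types in the kinesin values was not tested. Without proliferation replicate 2, 10 mitotic kinesins still fell.

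Of the 15 transport kinesins 1 rose in limma, 0 fell and 14 were short of the threshold, where 2.94% of all genes rose and 2.97% fell. In limma 9 of the 15 had an unadjusted p under 0.05, 7 of them higher and 2 lower. So did 3816 of all 19938 genes, 1893 of them higher and 1923 lower. Their median log2 fold change was 0.24, against 0.02 over all genes, and the estimates ran from -0.48 to 0.48. In 9 of the 15 all differentiation arrays lay above all proliferation arrays, where 14.6% of all genes did so, and in 2 all lay below, where 12.9% of all genes did so. The 95% intervals of the 15 reached no lower than -0.85 and no higher than 0.77, so changes as large as those of the 10 mitotic kinesins that fell lay outside them. The count that passed was unstable. It was 0 with each array centred on its median and without any 1 array other than proliferation replicate 1. It was 4 in the test over clusters with 1 symbol, where Kif5b, Kif13b and Kif16b were higher and Kif21a lower. The methods' t-test at 1.5-fold also gave 0. That count was fixed by the fold cut, as the largest change was 1.39-fold (Kif16b), and it says nothing on stability.

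Kinesin-3 motors carry endosomes and vesicle precursors, and held the largest positive estimates of the transport group. Kif13b (transcript cluster 10415911), which binds the scaffold Dlg1 and moves vesicles of the phosphoinositide PIP3, had 7.91, 7.71 and 7.70 in proliferation and 8.21, 8.28 and 8.16 in differentiation. The groups were apart by 0.26, and Kif13b rose with a log2 fold change of 0.45 ± 0.09 (SE, adjusted p = 0.0489), a 1.36-fold difference just inside the threshold. Omission of any 1 array but proliferation replicate 1 ended the call, with adjusted p from 0.0914 to 0.196. With each array centred on its median the adjusted p was 0.0523. Kif16b, which moves early endosomes, measured 7.97, 7.67 and 7.97 and 8.33, 8.43 and 8.28, again without overlap. Its log2 fold change of 0.48 ± 0.11 (SE, adjusted p = 0.0695) did not pass. Kif13a, a carrier of recycling endosomes, and Kif1c, which moves dense-core vesicles and supports Golgi traffic, had log2 fold changes of 0.26 and 0.24 (adjusted p = 0.142 and 0.18). Kif1b, known for moving mitochondria and synaptic vesicle precursors, had 0.14, with an interval of -0.06 to 0.33. The neuronal vesicle motor Kif1a had 0.02, with -0.40 to 0.44, and its sign turned without proliferation replicate 2 or differentiation replicate 1 or 2.

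The heavy chains of conventional kinesin, the kinesin-1 motors, were all estimated higher and none passed. Kif5b, the form made in most tissues, measured 10.50, 10.49 and 10.51 in proliferation and 10.90, 10.93 and 10.70 in differentiation. Its proliferation arrays lay within 0.02 of each other, and the log2 fold change was 0.35 ± 0.09 (SE, adjusted p = 0.102). Kif5a and Kif5c, the forms enriched in neurons, had log2 fold changes of 0.35 and 0.26 with wider intervals of -0.08 to 0.77 and -0.18 to 0.69. Without proliferation replicate 2 these estimates were 0.14 and 0.06. The kinesin-2 motors build cilia by intraflagellar transport and also serve axons. Kif3b and Kif3c had log2 fold changes of 0.22 and 0.30 without overlap of the groups (adjusted p = 0.242 and 0.219), Kif3a, the partner of both, had -0.03 with -0.23 to 0.17, and Kif17, with a mean below 6.15, had -0.13.

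The Kif21 motors, which pause microtubule growth at the cell edge and in axons, had the lowest estimates of the transport kinesins. Kif21b had 7.54, 8.09 and 7.55 in proliferation and 7.21, 7.26 and 7.28 in differentiation, with proliferation replicate 2 well above the others. The groups did not overlap, but the log2 fold change of -0.48 ± 0.16 (SE, adjusted p = 0.188) did not pass. Kif21a had 9.00, 9.26 and 9.16 and 8.74, 8.85 and 8.57, with a log2 fold change of -0.42 ± 0.11 (SE, adjusted p = 0.104). As with the mitotic kinesins, both Kif21 genes were highest in proliferation replicate 2.

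**Figure D2:**
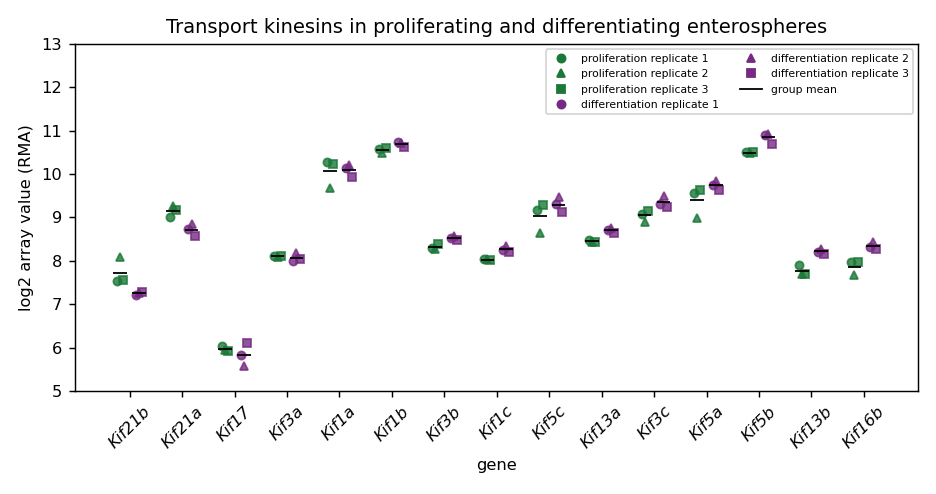
Each point is the log2 array value (RMA, vertical axis) of 1 transport kinesin (horizontal axis, ordered by change) on 1 array, with colours, symbols and bars for group, replicate and group mean of 3 arrays. The means of the groups differ by less than 0.5 in all 15 genes. The triangle of proliferation replicate 2 lies low for Kif1a, Kif5c, Kif5a and Kif16b.

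Kif1a, Kif5a and Kif5c were lowest in the proliferation array where the mitotic kinesins were highest, and were chosen for this pattern. Kif21a, Kif21b, Kif17, Kif1c, Kif13a and Kif13b did not share the pattern. Kif1a had 10.28, 9.69 and 10.24 in proliferation and 10.14, 10.20 and 9.93 in differentiation. Kif5a had 9.57, 8.99 and 9.63 and 9.75, 9.84 and 9.64, and Kif5c had 9.18, 8.65 and 9.29 and 9.30, 9.46 and 9.13. Proliferation replicate 2 was thus the lowest of all 6 arrays for the 3 genes, as it was for Kif16b, Kif3c, Kif3b, Kif1b and Kif5b. Within the proliferation group it was lowest in 9 of the 15 transport kinesins, against 42.2% of all genes. Of 11 measured neuron markers 10 were lowest there as well, the exception being Map2. Among these markers Tubb3, a neuronal tubulin, rose with a log2 fold change of 0.98 ± 0.16 (SE, adjusted p = 0.0207) while 10 missed the threshold. The mean log2 level ranged over 9.38 to 9.80 in proliferation and 9.52 to 9.75 in differentiation. Proliferation replicate 2 was also the lowest of its group in all 5 fibroblast markers, and the part of neurons and fibroblasts in the kinesin values was not tested.

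**Figure D3:**
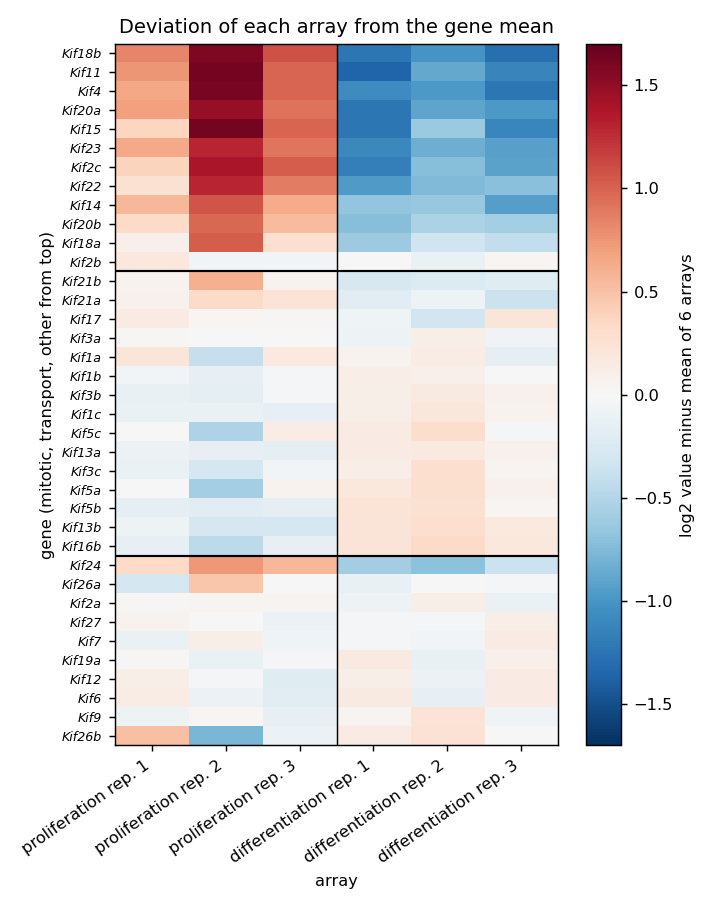
Each row is 1 of the 37 kinesin genes and each column 1 array, coloured by the log2 value minus the mean of the gene over 6 arrays (red above, blue below), with black lines between mitotic, transport and other kinesins from top to bottom and between the groups. The upper block turns from red to blue between the groups except for Kif2b, and proliferation replicate 2 is the reddest column of that block. In the lower blocks this column is bluest for Kif26b, Kif5a, Kif5c, Kif16b and Kif1a, and paler blue for others such as Kif3c and Kif13b. It is red there for Kif24, Kif21b, Kif26a and Kif21a.

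Among the 10 other kinesins 1 fell, 0 rose and 9 did not pass, beside 2.97% of all genes lower and 2.94% higher, with a median log2 fold change of 0.06. Kif24 (transcript cluster 10512236), a depolymerising motor of the mother centriole that restrains the growth of a primary cilium, was the one that fell. Its values were 6.48, 6.88 and 6.71 in proliferation and 5.55, 5.45 and 5.78 in differentiation. No arrays overlapped, by 0.70, and the log2 fold change was -1.10 ± 0.14 (SE, adjusted p = 0.00912), a 2.14-fold decrease, with proliferation replicate 2 again highest. Kif24 had a mean of 6.14, next to the median cluster mean, and did not pass without proliferation replicate 3 or differentiation replicate 1 (adjusted p = 0.0507 and 0.0612).

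Of the motors linked to signalling, Kif26a lacks motor activity and is known to restrain Ret signalling in developing enteric neurons. It had 7.41, 8.19 and 7.70 in proliferation and 7.59, 7.70 and 7.67 in differentiation, a log2 fold change of -0.11 ± 0.19 (SE, adjusted p = 0.84) with an interval of -0.56 to 0.34. Kif26b, a relative that acts in cell adhesion and polarity, had 8.85, 7.56 and 8.23 and 8.48, 8.58 and 8.34. Proliferation replicate 1 was the highest and replicate 2 the lowest of all 6 arrays, and the log2 fold change of 0.25 ± 0.30 (SE, adjusted p = 0.763) turned to -0.08 without replicate 2. A second cluster of Kif26b gave 0.18. Kif7, which organises the tip of the primary cilium for Hedgehog signalling, had 0.05 with an interval of -0.19 to 0.28.

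None of the kinesins known from motile cilia passed. Kif9, a motor of the axoneme, had 5.61, 5.73 and 5.56 in proliferation and 5.75, 5.93 and 5.63 in differentiation. The groups overlapped, with a log2 fold change of 0.14 ± 0.11 (SE, adjusted p = 0.623). Kif6, Kif19a and Kif27, also known from cilia, and Kif12, described in epithelia such as the kidney, had log2 fold changes from 0.03 to 0.10, and all these genes had means under 6.15. Of 4 markers of multiciliated cells, Foxj1, Dnah5, Dnah9 and Rsph1, 0 passed, and their mean level was 5.08 to 5.11 in proliferation and 5.08 to 5.20 in differentiation.

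**Figure D4:**
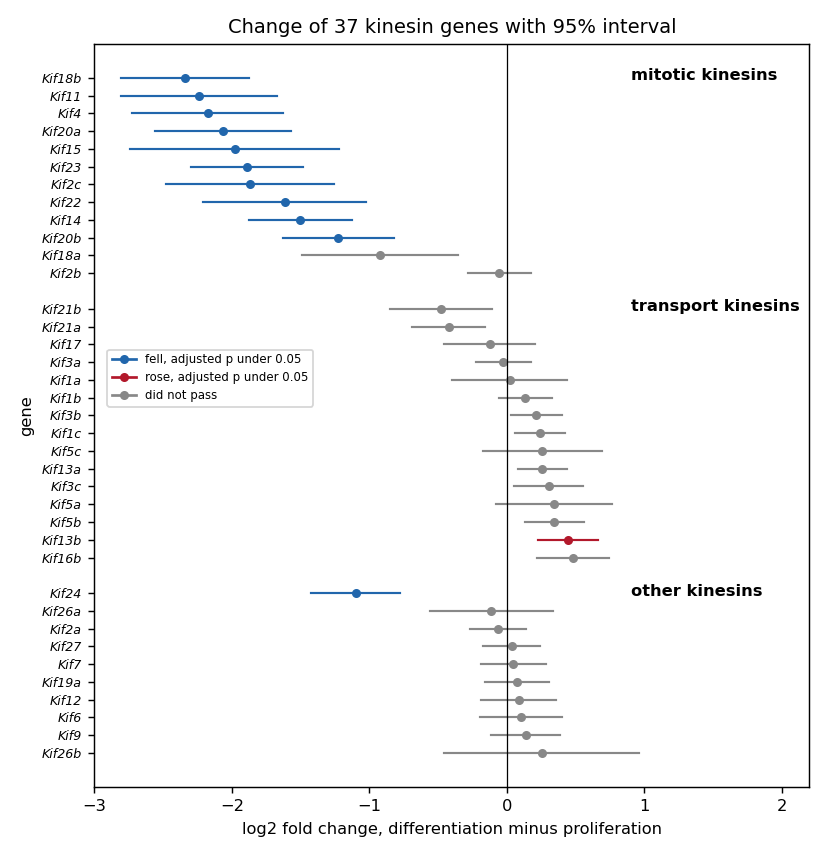
Points are log2 fold changes (differentiation minus proliferation, horizontal axis) of the 37 kinesin genes (vertical axis, grouped by role) and bars their 95% intervals from limma with 3 arrays per group. Blue genes fell and red genes rose at an adjusted p under 0.05, and grey genes did not pass. The 10 blue mitotic kinesins lie below -1.2, whereas the transport kinesins lie between -0.48 and 0.48.

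Most genes that work with mitotic kinesins fell too. Among the 13 with a cluster of their own, 11 fell, 0 rose and 2 did not pass, beside 2.97% of all genes that fell, with a median log2 fold change of -1.68. Ect2, the exchange factor that Kif23 and Racgap1 position for the cleavage furrow, fell most, from 9.33 ± 0.33 to 7.08 ± 0.14 (SD, 3 arrays each), with a log2 fold change of -2.25 ± 0.17 (SE, adjusted p = 0.00292). Plk1, the kinase that docks on Kif20a, and Tpx2, which targets Kif15 to the spindle and activates Aurora A, fell with log2 fold changes of -2.11 and -2.05, and Aurkb, the Aurora B kinase, with -2.05. Cit, the citron kinase partner of Kif14, did not pass, with -0.58 ± 0.13 (SE, adjusted p = 0.0687). Neither did Numa1, which tethers microtubules at the poles and is also found in interphase nuclei, with -0.01 ± 0.08 (SE, adjusted p = 0.978). All 13 were highest within proliferation in replicate 2. Only 7 passed when proliferation replicate 3 or differentiation replicate 1 was left out, and 0 by the methods' t-test at 1.5-fold after Benjamini-Hochberg adjustment. Kifc1, a minus-end kinesin of the spindle, shares its cluster with another symbol and was not analysed here.

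Among 23 measured adaptors and accessory chains of transport kinesins, 2 rose, 0 fell and 21 did not pass, beside 2.94% of all genes that rose. Their median was 0.08. Trak2, which links Kif5 to mitochondria, measured 10.43, 10.16 and 10.41 in proliferation and 10.87, 10.85 and 10.79 in differentiation, and rose with a log2 fold change of 0.50 ± 0.10 (SE, adjusted p = 0.0403). Kifc3, a minus-end kinesin of cell junctions, had 8.73, 8.76 and 8.61 and 9.20, 9.11 and 9.19, with 0.47 ± 0.08 (SE, adjusted p = 0.0285). Neither gene passed once any 1 of the 6 arrays was left out. Dynein, the motor that walks toward microtubule minus ends, and its cofactor dynactin gave 1 increase among 15 measured genes, beside 2.94% of all genes that rose, with a median of 0.05. This was Dync1li2, a light intermediate chain that binds cargo adaptors, with a log2 fold change of 0.48 ± 0.09 (SE, adjusted p = 0.0346), which likewise did not pass with any 1 array left out.

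**Figure D5:**
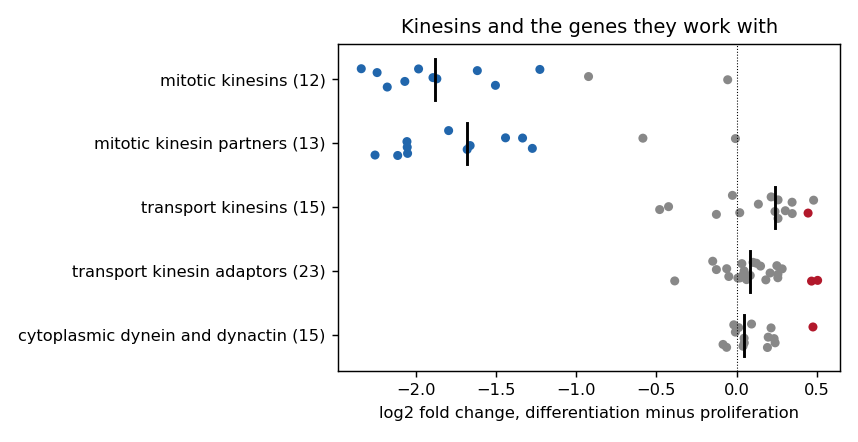
The horizontal axis gives log2 fold changes (differentiation minus proliferation) and the vertical axis the gene lists, with the number of measured genes in brackets and 1 point per gene. Blue genes fell, red genes rose, grey genes did not pass, black bars are medians, and points were spread vertically for legibility alone. Mitotic kinesins and their partners have medians of -1.88 and -1.68, whereas the medians of the transport kinesins, their adaptors and dynein with dynactin are 0.24, 0.08 and 0.05.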

How the data were processed

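Total RNA of 6 samples was measured on Affymetrix whole-transcript mouse gene arrays, 1 per sample. The authors deposited log2 values made by RMA with Partek Software 6.6, after scanning under AGCC 3.0 and a check in Expression Console 1.0. Since RMA gives the probe values of all arrays the same distribution, a shift in most transcripts at once is largely removed. The cluster values still had array medians from 6.115 (proliferation replicate 2) to 6.185 (differentiation replicate 1). The genome build behind the clusters is not given in the sources used here. Array values carry no counts, so the number of arrays limits the precision.

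Groups came from the sample titles. The table held 35556 transcript clusters, of which 21789 carried 1 symbol, 1621 several and 12146 none, by the platform annotation. The Entrez identifiers of all 37 kinesins were found in a GRCm38.p6 gene table, with 37 symbols alike. The contrast was fitted by lmFit and eBayes of limma 3.58.1 under R 4.3.3, two-sided and Benjamini-Hochberg adjusted over all clusters, without a filter. The steps were tested on simulated data. Python 3.11.15, SciPy 1.17.1 and matplotlib 3.10.9 served for tables, permutation tests and plots.

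The members, role lists, partner lists and markers were chosen with earlier results of these data known. Values on every array were to be given for each kinesin past the test and for the 3 of each role with the largest change, and others by fold change or range. Kif18a, Kif21a, Kif26a, Kif1a, Kif5a, Kif5b and Kif5c were given on every array after their values were seen. Of the other lists, up to 4 genes past the test were to be named. Alternatives were cyclic loess, centring on the median, the replicate block, robust limma-trend, array weights, fewer clusters, averaging the clusters of a gene, a minimum of 1.5-fold, the methods' t-test at 1.5-fold with and without Benjamini-Hochberg adjustment, and leaving out each array. The labels do not say whether replicate numbers mark shared experiments. Over all clusters, same-numbered arrays deviated from their group means with correlations of -0.003, 0.09 and -0.07, so they were not treated as pairs. The mean level of the mitotic kinesins was nevertheless lowest in replicate 1 and highest in replicate 2 in both groups. That of the transport kinesins in replicate 2 was the lowest in proliferation (8.58) but the highest in differentiation (8.86). The paper describes 3 independent experiments, and picked enterospheres were placed in either medium. Arrays of the groups may therefore share a preparation, which the main test leaves out. The p-values measure only the spread between these samples.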

Additional observations from a re-analysis of the deposited data

How the results depend on the processing

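The 12 kinesins that passed the test kept their direction in all alternatives. Estimates near 0 did not. Kif1a turned to -0.0153 with centring on the median and -0.0513 with array weights, Kif27 to -0.0105 with cyclic loess and -0.0008 with centring, Kif2b to 0.0150 with array weights and Kif6 to -0.0065 with averaged clusters. Leaving out 1 array gave -0.26 to 0.0042 for Kif17, -0.17 to 0.13 for Kif1a, -0.29 to 0.10 for Kif26a, -0.0750 to 0.57 for Kif26b, -0.0172 to 0.0709 for Kif27, -0.095 to 0.0181 for Kif2b, -0.0832 to 0.0088 for Kif3a and -0.0094 to 0.12 for Kif7.

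Neither the labels nor the correlations settle whether replicate numbers pair the samples. The replicate block lowered the count over all clusters from 1459 to 664, left 10 mitotic kinesins and gave 0 transport kinesins (Kif13b, adjusted p = 0.135), 0 adaptors and 0 dynein genes. With the block, the SE of the log2 fold change went from 0.24 to 0.12 for Kif11 and from 0.09 to 0.10 for Kif13b. The methods' t-test at 1.5-fold after Benjamini-Hochberg adjustment passed 176 clusters, and 0 mitotic, 0 transport and 0 other kinesins, 0 partners, 0 adaptors and 0 dynein genes. Its form without correction, and a minimum of 1.5-fold in limma, each gave 0 transport kinesins, 0 adaptors and 0 dynein genes. The largest changes in these lists were 1.39-fold (Kif16b), 1.42-fold (Trak2) and 1.39-fold (Dync1li2). For these lists the counts of 0 in every setting with a 1.5-fold cut were therefore fixed by that cut. Centring gave 0 transport kinesins and 0 dynein genes. Transport kinesins numbered 2 with limma-trend, and 4 over clusters at or above the median mean, over clusters with 1 symbol or with averaged clusters. The median filter left 0 other kinesins, since Kif24 lies below it. Array weights passed 12721 clusters, 9 transport and 3 other kinesins, 9 adaptors and 6 dynein genes. The weights were 7.45 for differentiation replicate 1, 3.62 for proliferation replicate 3 and 0.40 to 0.49 for the other arrays. This setting thus rested mostly on 1 array per group, and the cause of its higher counts was not tested. With 1 array left out, the counts ranged from 294 to 1297 clusters, 6 to 10 mitotic, 0 to 1 transport and 0 to 1 other kinesins, 7 to 11 partners, 0 to 0 adaptors and 0 to 0 dynein genes. Arrays carry no counts, and with 3 per group changes of low or variable genes such as Kif20b, Kif24 and Kif26b had intervals that the number of arrays limits.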
